A study of Homo sapiens with 8 samples.

Results

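The basal and squamous keratins are the filament genes KRT5, KRT6A, KRT6B, KRT6C, KRT14, KRT15, KRT16 and KRT17. They were found by gene symbol, after the Ensembl identifiers of the deposited count table were matched to GENCODE release 29, and all 8 were among the 58302 genes of the table. Per the labels, the tumours were xenografts of T24, an established line from a human urothelial bladder cancer, grown in mice; the identity of the line was not tested. In the DDR1 group (4 libraries) the cells carried enforced expression of DDR1, a receptor tyrosine kinase that binds collagen, and in the control group (4 libraries) they were control cells. How expression was enforced, the age and strain of the host mice, what the control cells received and the time of growth are unknown here because no label states them. All 8 libraries come from 1 labelled cell line, and the labels do not say whether each is a separate animal. Reads from the mouse host may add to the value of any gene below whose sequence is alike in mouse, and their share was not tested.

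Keratins form filaments only as pairs of a type I and a type II protein. In stratified epithelia KRT5 (type II) pairs with KRT14 or KRT15 (type I) in the basal layer, and in basal cells of the urothelium KRT5 marks the layer on the basement membrane. The KRT6 proteins (type II) pair with KRT16 and KRT17 (type I), which are made in hair follicles and in epidermis that is wounded or divides fast. In bladder cancer KRT5, KRT6A and KRT14 are used as markers of the basal and squamous class of tumour.

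All levels below are CPM, read counts scaled to a common library size after TMM normalisation, and fold changes are log2 values of DDR1 over control from edgeR's quasi-likelihood test. The libraries held between 13716286 and 32271031 expected counts. The DDR1 gene itself had 159, 343, 427 and 810 CPM in DDR1 replicates 1 to 4, against 138, 110, 210 and 149 CPM in control replicates 1 to 4. DDR1 replicate 1 therefore lay inside the control range, and the groups overlapped for the gene that separates them (log2 fold change 1.52, SE 0.43, edgeR adjusted p = 0.9998). All DDR1 titles name sequencing lane 8, control replicates 1 and 2 name lane 7, and control replicates 3 and 4 name none, so lane and group cannot be told apart. DDR1 replicates 2, 3 and 4 share a title prefix, as do control replicates 3 and 4. Control replicate 4 stood apart, with the lowest level of KRT5, KRT6A, KRT6B, KRT14, KRT15 and KRT17 and the lowest depth.

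By group mean of CPM per kilobase of transcript, KRT17 and KRT5 were highest in both groups, KRT14, KRT15 and KRT6A followed, KRT6B and KRT16 were low, and KRT6C was near the limit of counting. On that scale KRT14 and KRT15 were below KRT6A in control replicate 3, and both differed widely between libraries of each group. No member passed the test between DDR1 and control tumours at an adjusted p under 0.05. Of all 18973 tested genes 0% passed that test, and 4.17% passed at an unadjusted p under 0.05 (in DDR1 tumours 1.93% above and 2.24% below controls), where 0 of the 7 tested members did. The ranges of DDR1 and control libraries overlapped for all 8 members, whereas 2.4% of tested genes had groups that did not overlap. DESeq2 called 0.0825% of the 18174 genes to which it gave an adjusted p, and none of these 15 genes was a member.

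**Figure D1:**
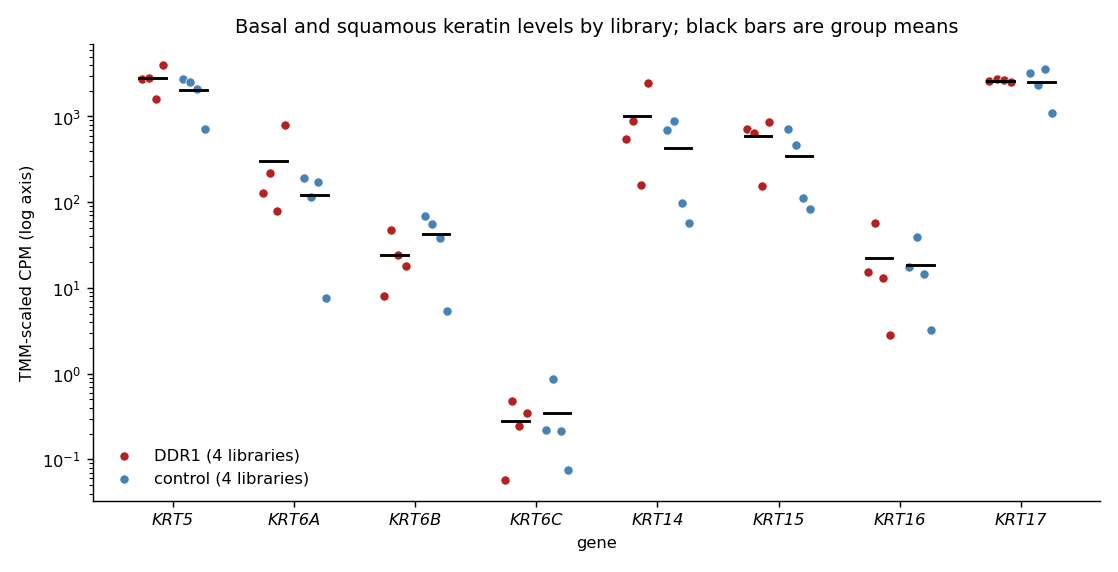
The level of each basal and squamous keratin is plotted for every library in TMM-scaled CPM on a log axis, with DDR1 libraries left of control libraries, 1 point per library in replicate order, and a black bar at the mean of each group of 4. The points of the 2 groups overlap for all 8 genes, KRT17 and KRT5 are highest, and KRT6C is below 1 CPM throughout.

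Among the type II genes, KRT5, the basal partner, lies at chr12:52514575-52520687 on the minus strand of GRCh38. It had 2723, 2793, 1611 and 4013 CPM in DDR1 replicates 1 to 4, against 2718, 2550, 2077 and 707 CPM in control replicates 1 to 4. The highest library was DDR1 replicate 4 and the lowest control replicate 4, and the other 6 libraries of both groups lay between 1611 and 2793 CPM. The means were 2785 ± 982 CPM in DDR1 tumours and 2013 ± 912 CPM in controls (SD, n = 4 each). The log2 fold change was 0.47 (SE 0.41, 95% interval -0.46 to 1.40, edgeR adjusted p = 0.9998), and leaving out control replicate 4 or DDR1 replicate 4 gave 0.19 or 0.24.

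KRT6A, the most abundant KRT6 gene here, is encoded at chr12:52487174-52493257, minus strand. It had 129, 220, 78.8 and 786 CPM in DDR1 replicates 1 to 4, against 193, 115, 172 and 7.62 CPM in control replicates 1 to 4. A single library of each group set the outer values, DDR1 replicate 4 at the top and control replicate 4 at the bottom, with the other 6 interleaved. Its means were 303 ± 327 CPM in DDR1 tumours and 122 ± 82.8 CPM in controls (SD, n = 4 each). The log2 fold change of 1.31 (SE 0.90, 95% interval -0.71 to 3.34, edgeR adjusted p = 0.9998) was 0.23 when DDR1 replicate 4 was left out.

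KRT6B (chr12:52446651-52452126, minus strand), which is made in hair follicles and nail beds, had 8.02, 46.8, 24.5 and 18.2 CPM in DDR1 replicates 1 to 4, against 69.6, 55.3, 38.1 and 5.33 CPM in control replicates 1 to 4. Control replicates 1 and 2 were highest, control replicate 3 lay between DDR1 libraries, and control replicate 4 was lowest, so the groups overlapped. It was the only tested member with a fitted value below 0: the log2 fold change was -0.79 (SE 0.69, 95% interval -2.34 to 0.76, edgeR adjusted p = 0.9998), and without the 2 controls of lane 7 it was 0.21. KRT6B made up 5.87%, 17.5%, 23.7% and 2.26% of the summed KRT6A, KRT6B and KRT6C CPM in DDR1 replicates 1 to 4, against 26.5%, 32.2%, 18.1% and 40.8% in control replicates 1 to 4. The share in DDR1 replicates 2 and 3 lay close to or above that of control replicate 3.

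KRT6C (chr12:52468516-52473785, minus strand), the third KRT6 gene, did not pass the filter on low counts and was not tested. Its expected counts were 2.43, 15.41, 6.05 and 7.05 in DDR1 replicates 1 to 4, against 4.35, 21.23, 4.61 and 1.22 in control replicates 1 to 4. None of these libraries reached 1 CPM of KRT6C, and the highest value was 0.877 CPM in control replicate 2. At this depth no difference in KRT6C could be detected.

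The KRT6 genes are near copies of each other, which limits how firmly reads can be given to 1 of them. Their coding sequences are 97.5% identical between KRT6A and KRT6B, 97.9% between KRT6A and KRT6C, and 98.5% between KRT6B and KRT6C. The longest run without a difference between KRT6A and KRT6C transcripts is 349 bases, more than the 150 bp of 1 read. Of all 100-base windows of the principal transcript, 18.2% in KRT6A, 24.6% in KRT6B and 31.7% in KRT6C occur unchanged in another gene. At the read length of 150 bases the shares are 9.25% in KRT6A, 12.8% in KRT6B and 16.5% in KRT6C. A stretch of 60 coding bases that tells the 3 genes apart was chosen as the one where the closest pair differs most. Over the whole coding sequence KRT6A and KRT6B differ at 43 of 1695 aligned bases. The stretch is given 5′ to 3′ on the transcript from GENCODE release 29, with capitals at the 9 positions that differ among the genes.
KRT6A, chr12:52491555-52491614, minus strand: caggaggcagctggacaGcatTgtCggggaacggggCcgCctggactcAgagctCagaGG
KRT6B, chr12:52450439-52450498, minus strand: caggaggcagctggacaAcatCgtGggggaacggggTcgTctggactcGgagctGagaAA
KRT6C, chr12:52472099-52472158, minus strand: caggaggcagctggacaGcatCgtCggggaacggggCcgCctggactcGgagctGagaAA
In this stretch KRT6A differs from KRT6B at 9 bases, while the closest pair of the 3 genes differs at only 4. When the KRT6 genes were summed as 1 feature, which needs no choice among them, the log2 fold change was 0.996 (SE 0.84, edgeR adjusted p = 0.9999). That sum is mostly KRT6A in all 8 libraries, and its direction is the opposite of the KRT6B value.

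Among the type I genes, KRT14, the main partner of KRT5 in basal epidermis, lies at chr17:41582279-41586921 on the minus strand. It had 548, 886, 159 and 2471 CPM in DDR1 replicates 1 to 4, against 693, 881, 98.3 and 57.2 CPM in control replicates 1 to 4. DDR1 replicate 4 was the highest, and DDR1 replicate 3 lay with control replicates 3 and 4 at the low end. The means were 1016 ± 1014 CPM in DDR1 tumours and 433 ± 417 CPM in controls (SD, n = 4 each), so that the SD was as large as the mean. The log2 fold change of 1.23 (SE 0.96, 95% interval -0.92 to 3.39, edgeR adjusted p = 0.9998) was 0.29 without DDR1 replicate 4.

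KRT15 (chr17:41513743-41522529, minus strand), a basal type I keratin that in skin also marks stem cells of the hair follicle, had 706, 646, 153 and 873 CPM in DDR1 replicates 1 to 4. In control replicates 1 to 4 it had 722, 462, 112 and 82.6 CPM. The same libraries as for KRT14 were low, namely DDR1 replicate 3 and control replicates 3 and 4, and none of the other 5 fell below 462 CPM. The means were 594 ± 309 CPM in DDR1 tumours and 345 ± 305 CPM in controls (SD, n = 4 each), with a log2 fold change of 0.79 (SE 0.71, 95% interval -0.82 to 2.39, edgeR adjusted p = 0.9998).

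For several members, KRT14 and KRT15 most of all, the fitted value depended on which controls were used. Without control replicates 1 and 2 (lane 7) it was 3.74 for KRT14 and 2.64 for KRT15. Both genes were then among the 5.61% of 20585 genes with an unadjusted p under 0.05, and 0% of genes passed after adjustment. In that fit KRT5 was at 1.04, KRT16 at 1.37 and KRT6B at 0.21, the opposite sign of its value with all libraries. Without control replicates 3 and 4 (no lane in the title) it was 0.37 for KRT14, 0.01 for KRT15, 0.08 for KRT5 and -0.34 for KRT16, and KRT6B (-1.36) was the only member among the 2.97% of 20605 genes with an unadjusted p under 0.05. The part of lane or title prefix in this was not tested, and lane cannot be told apart from group.

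KRT17 (chr17:41619441-41624842, minus strand), a keratin induced in injured and fast-dividing epithelium, was the steadiest member. It had 2569, 2704, 2671 and 2512 CPM in DDR1 replicates 1 to 4, against 3173, 2337, 3599 and 1085 CPM in control replicates 1 to 4. All DDR1 libraries lay inside the control range. The means were 2614 ± 89.3 CPM in DDR1 tumours and 2548 ± 1108 CPM in controls (SD, n = 4 each), and the log2 fold change was 0.04 (SE 0.33, 95% interval -0.69 to 0.77, edgeR adjusted p = 0.9998). The interval covers changes of size 0.77 or less on the log2 scale, the narrowest of the tested members, and the sign of the value changed in 5 of the alternative fits.

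KRT16 (chr17:41609778-41615899, minus strand), the usual partner of KRT6A in activated epidermis, had 15.2, 57.9, 13.0 and 2.80 CPM in DDR1 replicates 1 to 4, against 17.4, 38.9, 14.4 and 3.20 CPM in control replicates 1 to 4. Replicate 2 of each group was the highest and replicate 4 of each group the lowest, although these numbers only follow the order of deposition and do not pair the libraries. Its log2 fold change of 0.26 (SE 0.86, 95% interval -1.65 to 2.18, edgeR adjusted p = 0.9998) was -0.84 without DDR1 replicate 2. KRT16 was lowest in DDR1 replicate 4, the library in which its usual partner KRT6A was highest.

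KRT14, KRT16 and KRT17 are also alike in sequence, though less so than the KRT6 genes. Their coding sequences are 88.6% identical between KRT14 and KRT16, 85.2% between KRT14 and KRT17, and 80.8% between KRT16 and KRT17. Of 100-base windows, 5.95% in KRT14, 7.18% in KRT16 and 0.353% in KRT17 occur unchanged in another gene, and 0% in KRT15. Of 150-base windows the shares are 0.595% in KRT14, 0.736% in KRT16 and 0% in KRT17 and KRT15. The 60 aligned coding bases below, also chosen where the closest pair differs most, have 19 positions that differ among the genes, in capitals.
KRT14, chr17:41584992-41585051, minus strand: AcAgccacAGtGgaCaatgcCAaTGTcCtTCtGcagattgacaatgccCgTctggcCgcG
KRT16, chr17:41611656-41611715, minus strand: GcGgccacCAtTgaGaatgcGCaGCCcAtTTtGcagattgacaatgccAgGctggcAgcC
KRT17, chr17:41622967-41623026, minus strand: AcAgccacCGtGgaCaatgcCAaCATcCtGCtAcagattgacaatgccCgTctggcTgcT
KRT14 differs from KRT16 at 17 of these bases and from KRT17 at 7. Over the whole coding sequence the order is the reverse. There KRT14 differs from KRT16 at 158 of 1392 aligned bases and from KRT17 at 192 of 1299. KRT14, KRT16 and KRT17 summed with their 14 annotated pseudogenes gave a log2 fold change of 0.29 (SE 0.37, edgeR adjusted p = 0.9999). That sum is dominated by KRT17 in most libraries.

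**Figure D2:**
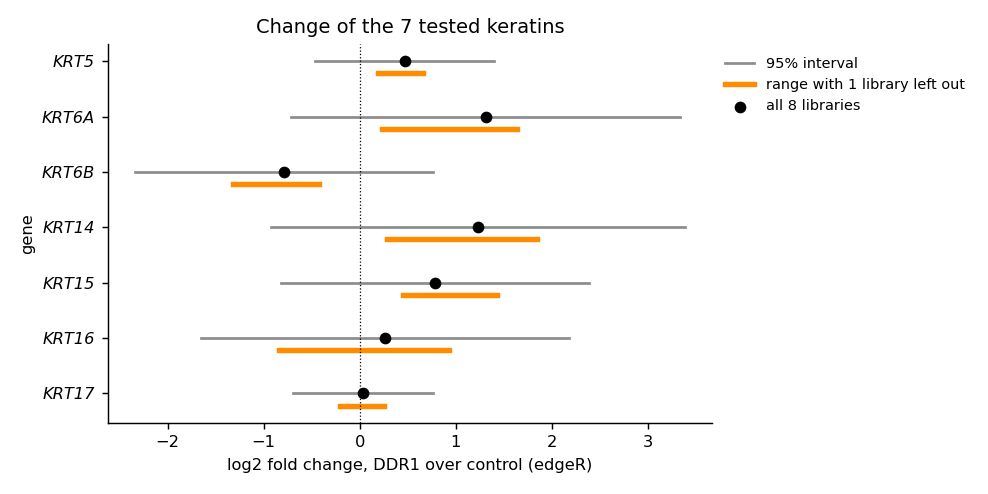
For each of the 7 tested keratins a black point gives the log2 fold change of DDR1 over control from all 8 libraries, a grey line its 95% interval, and an orange line below it the range when 1 library is left out. All 7 intervals include 0, KRT6B alone has a point below 0, and leaving out 1 library takes KRT16 between -0.84 and 0.93.

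Over the 7 tested members the median log2 fold change was 0.47, with 6 above 0, while the median of all tested genes was -0.00 with 49.5% above 0. Leaving out 1 library at a time gave medians between 0.19 and 0.93, and without control replicate 4 and DDR1 replicate 1 together the median was 0.20. It was 1.37 without the 2 controls of lane 7 and 0.01 without the 2 controls that name no lane. Exact two-sided permutation tests of log2 CPM gave p = 0.229 for KRT15, the smallest among the members, where 0.0286 is the smallest that 4 against 4 libraries allow.

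Levels of different genes can be compared once divided by transcript length. Per kilobase of the shortest principal transcript, KRT17 averaged 1702 CPM per kb over the 8 libraries, rank 8 of 13837 tested protein-coding genes. KRT5 followed at 948 CPM per kb (rank 24), KRT14 at 436 (rank 91), KRT15 at 196 (rank 230), KRT6A at 92.02 (rank 534), KRT6B at 14.6 and KRT16 at 12.4. For KRT15 the order depends on the transcript: with the longest principal form of 5237 bases it averaged 89.6 CPM per kb, just below KRT6A. KRT6B and KRT16 are neighbours whose ranges over libraries overlapped widely.

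**Figure D3:**
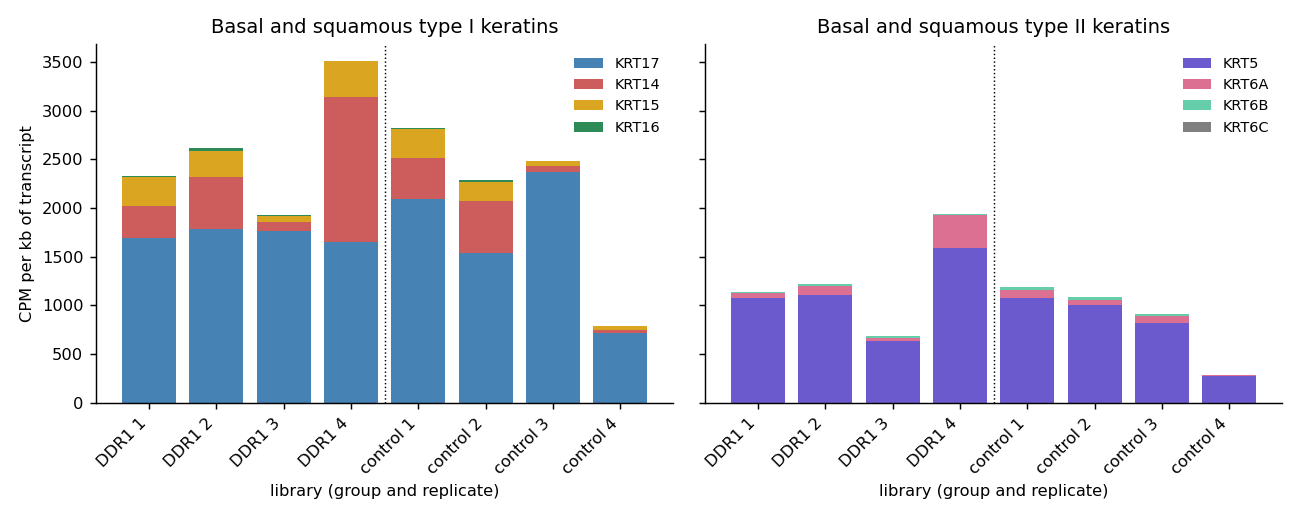
Stacked bars give the CPM per kb of each basal and squamous type I keratin (left panel) and type II keratin (right panel) in every library, with the DDR1 libraries left of the dotted line and the control libraries right of it. KRT17 and KRT5 make up most of each bar, except that KRT14 comes close to KRT17 in DDR1 replicate 4, and the bars of control replicate 4 are the shortest.

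The summed type I members exceeded the summed type II members in every library. The ratio of type I to type II CPM per kb averaged 2.21 ± 0.436 in DDR1 tumours and 2.49 ± 0.307 in controls (SD, n = 4 each), with a range of 1.81 to 2.83 over all libraries. KRT5 made up between 82.0% and 98.01% of the type II sum. KRT17 made up 72.8%, 68.01%, 91.3% and 47.2% of the type I sum in DDR1 replicates 1 to 4, against 74.1%, 67.3%, 95.4% and 91.0% in control replicates 1 to 4. The high shares stood in the libraries with little KRT14 and KRT15, since KRT17 itself varied less. The simple keratins KRT7, KRT8, KRT18 and KRT19, which fill single-layered and luminal epithelium, summed to less than the basal keratins in every library. The ratio of basal to simple keratins was 1.25 in control replicate 4 and between 2.80 and 4.81 in the other 7 libraries.

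The members differed far more from library to library than most genes. The SD of log2 CPM over the 8 libraries was 1.89 for KRT6A, 1.85 for KRT14, 1.51 for KRT16, 1.37 for KRT15, 1.33 for KRT6B, 0.76 for KRT5 and 0.52 for KRT17. The median SD of the 11894 tested genes that averaged at least 5 CPM was 0.321, and only 1.14% of these genes had a larger SD than KRT6A. For KRT17 that share was 18.5%. The spread was within groups as well as between them.

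**Figure D4:**
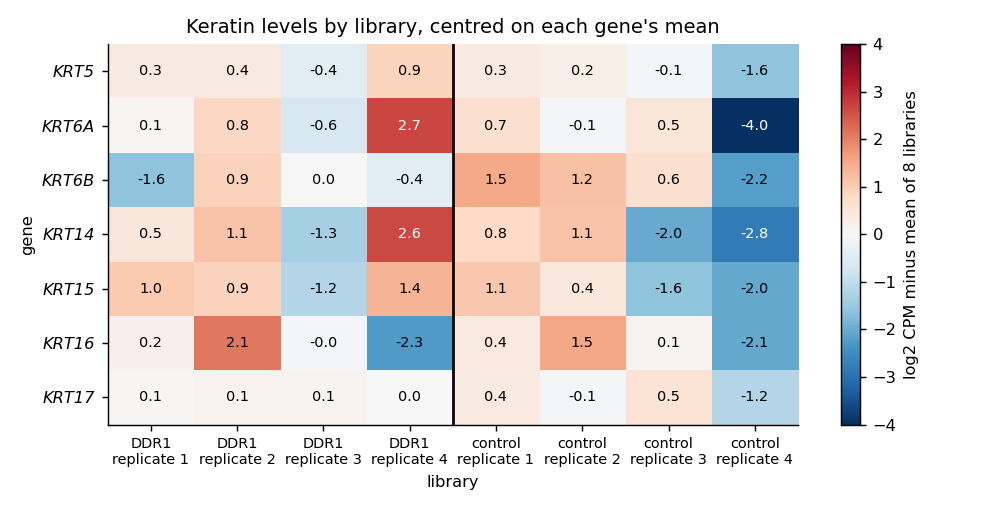
Each cell gives the log2 CPM of a tested keratin in 1 library minus that gene's mean over the 8 libraries, red above and blue below the mean, with DDR1 libraries left of the black line. Control replicate 4 is the lowest library in the rows of KRT5, KRT6A, KRT6B, KRT14, KRT15 and KRT17, DDR1 replicate 4 is high for KRT6A and KRT14, and the row of KRT16 has its high values in replicate 2 of both groups.

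Some members varied together across libraries. Correlations of log2 CPM were computed over the 8 libraries for 20 of the 21 pairs of tested members, and Pearson's r was above 0 for all 20. Spearman's rho was -0.0238 for KRT14 with KRT17. The shared sign did not hold without the 2 libraries farthest from the median of the first gene, control replicate 4 among them for every pair. Several pairs then had r below 0: it was -0.605 for KRT5 with KRT16, but 0.760 for KRT6B with KRT16. Pearson's r was 0.963 for KRT5 with KRT6A, the basal and the KRT6 type II genes (exact permutation p = 0.00131, adjusted over 20 pairs 0.00876, Spearman's rho 0.881, permutation p = 0.00724, adjusted 0.0483). For KRT5 with its partner KRT14 r was 0.883 (exact permutation p = 0.000942, adjusted 0.00876, rho 0.881), and with KRT15 it was 0.858 (exact permutation p = 0.000967, adjusted 0.00876, rho 0.881). KRT6A correlated with KRT14 at r = 0.797 (exact permutation p = 0.00806, adjusted 0.0403) and with KRT15 at r = 0.730 (exact permutation p = 0.0104, adjusted 0.0415), each with rho 0.762 (permutation p = 0.0368, adjusted 0.147). These 5 pairs had an adjusted permutation p under 0.05 for r, and 3 of them also for rho.

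None of the 5 relations kept an adjusted p under 0.05 when 2 outer libraries were left out, which leaves 6. Without control replicate 4 and DDR1 replicate 3, the libraries farthest from the median of KRT5, r was 0.823 for KRT6A, 0.903 for KRT14 and 0.782 for KRT15, with exact permutation p adjusted to 0.463, 0.463 and 0.694. For KRT6A without control replicate 4 and DDR1 replicate 4, r was 0.332 with KRT14 and 0.401 with KRT15, while r of KRT5 with KRT14 was no lower than before. Those libraries were left out as the farthest from the median of KRT6A, which narrows its range. The lower r of KRT6A thus cannot show that its relations rest on them. With each group's mean subtracted instead, r of KRT6A was 0.754 with KRT14 and 0.673 with KRT15. After each group's mean was subtracted, none of the 20 pairs had an adjusted p under 0.05, the lowest being 0.0521 by permutation within groups, although r for KRT5 with KRT6A was still 0.955. Each lane holds at most 4 libraries, all of 1 group, so r within a lane is not given. KRT16 with KRT6A, its usual partner, gave r = 0.208 (exact permutation p = 0.634, adjusted 0.634, rho 0.167).

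KRT14 and KRT15 fell into separate sets of libraries, so no correlation is given for that pair. The 3 low libraries had 159, 98.3 and 57.2 CPM of KRT14 and 153, 112 and 82.6 CPM of KRT15 (DDR1 replicate 3, control replicates 3 and 4), and the other 5 had at least 548 CPM of KRT14 and 462 CPM of KRT15. The ratio of KRT14 to KRT15 CPM ranged from 0.692 in control replicate 4 to 2.83 in DDR1 replicate 4. KRT17 shared the split only in part: it had 2671 CPM in DDR1 replicate 3 and 3599 CPM in control replicate 3. Its lowest value, 1085 CPM, was in control replicate 4.

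**Figure D5:**
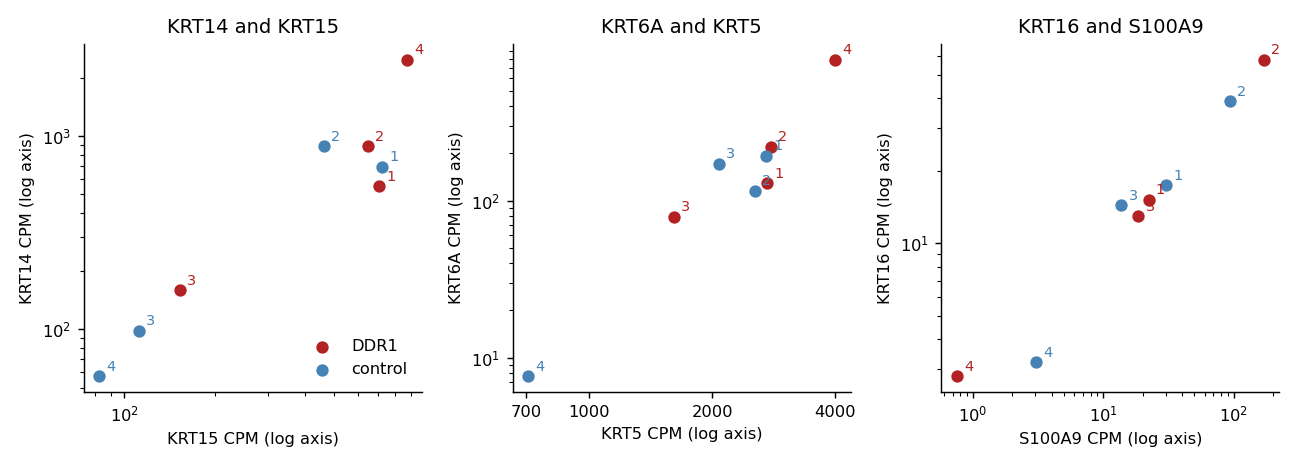
Scatter plots of CPM on log axes show KRT14 against KRT15 (left), KRT6A against KRT5 (middle) and KRT16 against S100A9 (right), 1 point per library, with DDR1 in red, control in blue, and the replicate number beside each point. The left panel has 3 libraries at the low end and 5 at the high end, and in the right panel replicate 2 of both groups is highest and replicate 4 of both groups lowest.

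The genes whose log2 CPM followed a member most closely over the 8 libraries were taken from 11887 tested genes that averaged at least 5 CPM. The r values are the highest of that many and are given as a description. KRT5 was followed by the tetraspanin CD9 (r = 0.979), the secreted growth factor carrier FGFBP1 (0.977) and RFXAP (0.974), and KRT6A by the chloride channel ANO1 (0.976), TRIP10 (0.975) and CD9 (0.950). KRT15 was followed by the channel subunit LRRC8B (0.967), MPI (0.957) and the non-coding ANKRD10-IT1 (0.952). KRT17 was followed by SERPINB5 (0.951), a serpin of epithelial cells known as maspin, by GOLGA1 (0.950) and by ANXA4 (0.948). The genes named for KRT5, KRT6A and KRT17 were all lowest in control replicate 4, as these keratins were. How far their r values rest on that library was not tested. The 3 genes nearest to KRT6B, namely THUMPD3 (0.950), ZNF35 (0.949) and OXSR1 (0.939), all lie on chromosome 3, whereas KRT6B lies on chromosome 12.

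KRT14 was followed most closely by KRT16P6 (r = 0.985), an annotated keratin pseudogene on chromosome 17, then by the sodium channel subunit SCNN1G (0.950) and ANKRD10-IT1 (0.949). The genes named here for KRT14 and KRT15 were all lowest in DDR1 replicate 3 and control replicates 3 and 4, as both keratins were. Their r values therefore include the split between libraries for which no correlation of KRT14 with KRT15 is given. KRT16P6 had 10.7, 12.0, 1.94 and 31.5 CPM in DDR1 replicates 1 to 4, against 7.75, 14.8, 1.12 and 1.07 CPM in control replicates 1 to 4. It was low in the same 3 libraries as KRT14 and highest in DDR1 replicate 4. Although it is named after KRT16, 7.35% of its 50-base windows occur unchanged in KRT14 and 0.439% in KRT16. How many of its counts came from KRT14 was not tested.

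KRT16 was followed by S100A9 (r = 0.981), KLK7 (0.975) and S100A8 (0.968), which are genes of inflamed or differentiating squamous epithelium. S100A9, a calcium-binding protein, had 22.3, 171, 18.5 and 0.750 CPM in DDR1 replicates 1 to 4, against 30.1, 93.6, 13.7 and 3.05 CPM in control replicates 1 to 4. KLK7, a protease of the cornified layer, had 31.2 CPM in DDR1 replicate 2 and 26.2 CPM in control replicate 2, and at most 4.01 CPM elsewhere. Genes of the upper layers of skin were high in these libraries as well. The suprabasal skin markers summed to 15.5, 128, 26.7 and 16.5 CPM in DDR1 replicates 1 to 4, against 11.6, 167, 11.9 and 9.45 CPM in control replicates 1 to 4. Filaggrin (FLG) had 43.6 CPM in DDR1 replicate 2 and 57.8 CPM in control replicate 2, and at most 5.14 CPM in any other library, and KRT10 had 63.6 and 62.7 CPM there. Of the 11 suprabasal markers found by symbol, 3 were tested, 5 stayed below 1 CPM in all libraries and 1 of these was at 0 throughout, and their part in the KRT16 level was not tested.

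Lists of genes that work with these keratins are described next. Because edgeR called 0 of all 18973 tested genes at an adjusted p under 0.05, it also called 0 in every list below. Of all tested genes 49.5% had a log2 fold change above 0. Of 12 desmosome genes, which anchor keratin at cell contacts, 10 had a log2 fold change above 0 and 2 below it (median 0.30). Desmoplakin (DSP), the protein that binds keratin directly, averaged 2144 ± 222 CPM in DDR1 tumours and 1836 ± 578 CPM in controls, and periplakin (PPL) averaged 566 ± 230 CPM in DDR1 tumours and 344 ± 106 CPM in controls (SD, n = 4 each). Of 9 hemidesmosome and laminin genes, which fix basal cells to the basement membrane, 5 were above 0 and 4 below it (median 0.00). Plectin (PLEC), which links keratin to the hemidesmosome, averaged 1711 ± 1583 CPM in DDR1 tumours and 1256 ± 356 CPM in controls (SD, n = 4 each).

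Of 21 tested genes of the cornified envelope and squamous differentiation, 17 were above 0 and 4 below it (median 0.33). PI3, the elastase inhibitor elafin, had 173, 830, 50.01 and 7.65 CPM in DDR1 replicates 1 to 4, against 62.3, 526, 97.0 and 27.6 CPM in control replicates 1 to 4, high in the libraries that were high for KRT16. The protease inhibitor SLPI averaged 458 ± 241 CPM in DDR1 tumours and 388 ± 138 CPM in controls (SD, n = 4 each).

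Of 19 tested regulators of basal and squamous keratins, 13 were above 0 and 6 below it (median 0.25). TP63, the factor that sets the basal program and acts on the KRT5 and KRT14 genes, had 106, 225, 399 and 194 CPM in DDR1 replicates 1 to 4, against 152, 172, 234 and 180 CPM in control replicates 1 to 4. TP63 was highest in DDR1 replicate 3 and control replicate 3, and both of these were low for KRT14 and KRT15. Control replicate 4, also low for KRT14 and KRT15, had 180 CPM of TP63, inside the range of the other libraries. The part of TP63 in the keratin levels was not tested. STAT3, a factor activated by cytokines, averaged 229 ± 17.4 CPM in DDR1 tumours and 229 ± 27.2 CPM in controls (SD, n = 4 each). Of 11 NRF2 target genes, an oxidative stress program known to act on KRT16 and KRT6A, 3 were above 0 and 8 below it (median -0.17).

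Of 7 genes of the EGF receptor and its ligands, which induce KRT6A, KRT16 and KRT17 in keratinocytes, 1 was above 0 and 6 below it (median -0.30). The 1 was EGFR itself, with 481, 519, 494 and 634 CPM in DDR1 replicates 1 to 4, against 383, 403, 336 and 359 CPM in control replicates 1 to 4. All DDR1 libraries were above all controls for EGFR, where 456 of 18973 tested genes (2.4%) had groups that did not overlap. Its log2 fold change was 0.52 (SE 0.16, edgeR adjusted p = 0.9998). The ligand TGFA averaged 53.3 ± 23.5 CPM in DDR1 tumours and 90.4 ± 31.1 CPM in controls (SD, n = 4 each).

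The tumours were checked against markers of bladder cancer classes. Of 13 basal class markers 9 were above 0 and 4 below it (median 0.31), and of 11 tested luminal class markers 8 were above 0 and 3 below it (median 0.18). The hyaluronan receptor CD44, a basal marker, averaged 1847 ± 679 CPM in DDR1 tumours and 2304 ± 744 CPM in controls (SD, n = 4 each). Among luminal class markers ERBB2, a receptor tyrosine kinase, was between 66.3 and 121 CPM, the factor FOXA1 was between 6.78 and 58.3 CPM, and the factor PPARG was at least 9.45 CPM in every library. The defining markers of terminally differentiated urothelium were near 0: UPK2 reached 1.84 CPM, UPK1B 1.89 CPM and KRT20 1.03 CPM at most in any library, while GATA3 was between 1.55 and 9.15 CPM. The list of simple and luminal keratins also held KRT4 and KRT13, the pair of mucosal squamous epithelium. Of its 6 tested genes, 5 were above 0 and 1 below it (median log2 fold change 0.34). These were KRT7 (0.08), KRT8 (0.34), KRT18 (-0.08), KRT19 (0.95), KRT4 (0.33) and KRT13 (1.39). KRT8 averaged 526 ± 277 CPM in DDR1 tumours and 415 ± 99.1 CPM in controls (SD, n = 4 each). Of 7 other intermediate filament genes, 2 were above 0 and 5 below it (median -0.04), with vimentin (VIM), the filament of mesenchymal cells, between 150 and 1096 CPM.

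Markers of other cells moved with some of the libraries, and in bulk tumours fewer cells of a type cannot be told apart from less RNA per cell. The tumours were human cells grown in mice, so these values may also hold mouse reads or transcripts of the tumour cells themselves. Which of these applied was not tested. The fibroblast markers summed to between 4.08 and 54.8 CPM in DDR1 tumours and between 10.1 and 67.3 CPM in controls, highest in control replicate 4, with 1 of 5 tested genes above 0. The muscle markers summed to between 6.80 and 88.0 CPM in DDR1 tumours and between 23.2 and 89.1 CPM in controls, highest in control replicate 4 and next in DDR1 replicate 4, with 1 of 4 tested genes above 0. Different genes carried these muscle sums: TNNT3 had 75.3 CPM, MYH1 5.70 CPM and MYH4 3.55 CPM in DDR1 replicate 4, against 3.66, 36.5 and 25.8 CPM in control replicate 4. Control replicate 4 was lowest for most keratins, while DDR1 replicate 4 was highest for KRT5, KRT6A, KRT14 and KRT15. The endothelial markers summed to between 9.28 and 76.5 CPM in DDR1 tumours and between 8.70 and 56.4 CPM in controls (3 of 3 tested genes above 0), and the leukocyte markers to between 23.3 and 49.2 CPM in DDR1 tumours and between 16.5 and 39.3 CPM in controls (3 of 3). The adipocyte markers summed to at most 2.13 CPM (2 of 2 above 0). Of 13 mitochondrially encoded genes 12 were above 0 (median 0.21), and of 14 handling stress genes 10 were above 0 (median 0.24). The part of these cells and of RNA quality in the keratin levels was not tested.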

How the data were processed

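RNA from 8 xenograft tumours was sequenced after poly-T selection as paired ends of 150 bp, per the labels' protocols, with no statement on strand. The submitters' processing notes name GRCh38, RSEM 1.3.1, STAR 2.7.5, Trim Galore 0.6.4 and FastQC 0.11.9. The annotation release, tool settings and any step that removed mouse reads were not given in the sources used here. The authors deposited expected counts (estimated counts per gene) and TMM-normalized values on a log2 scale, of which the log2 values served for 1 alternative only. RSEM can split reads between similar keratins, and 26.5% of expected counts above 0 were not whole. They were rounded before count tests.

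Of 58302 identifiers 58039 matched GENCODE release 29. Genes were filtered with filterByExpr (minimum count 10), scaled by TMM and tested with edgeR 4.0.16 in R 4.3.3 (quasi-likelihood, DDR1 against control, no covariate), with Benjamini-Hochberg adjustment over 18973 genes at 0.05. Log2 CPM used a prior count of 2. Replicate numbers follow accession order and pair nothing, and p-values cover only spread among libraries, part of which may be technical. Permutation tests were exact. Depth made counting error small beside this spread for all members but KRT6C. Identical sequence windows were counted over all transcripts of the annotation.

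Genes named are the members, DDR1, the 3 most abundant of each list, and the 3 genes most correlated with each member that averaged at least 5 CPM. Some genes this rule names are not reported here. Lineage markers, KRT4, KRT13 and KRT20 were named after their values were seen. Members and lists were chosen with earlier results of these data known. The fits were tested on simulated data. Alternatives were other scalings, DESeq2 1.42.0, limma 3.58.1, filters, libraries left out, prefixes summed, similar keratins summed and protein-coding genes only.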

Additional observations from a re-analysis of the deposited data

How the results depend on the processing

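No member was called under any of 21 settings; the lowest adjusted p of a member was 0.820, for KRT14 by edgeR without control replicate 2, and 3 of 147 member fits had an unadjusted p under 0.05. DESeq2 called 15 genes, against 0 by edgeR, where 791 had an unadjusted p under 0.05. Leaving out 1 library gave 0 genes called and 0 members called each time, and medians of the 7 members from 0.19 to 0.93. Those log2 fold changes ran from 0.19 to 0.66 for KRT5, 0.23 to 1.64 for KRT6A, -1.32 to -0.43 for KRT6B, 0.29 to 1.85 for KRT14, 0.45 to 1.43 for KRT15, -0.84 to 0.93 for KRT16 and -0.20 to 0.25 for KRT17. KRT5, KRT6A, KRT14 and KRT15 were above 0 in every alternative run. The sign of KRT17 changed without control replicate 2 (-0.00046), without control replicate 4 (-0.20), without control replicate 4 and DDR1 replicate 1 together (-0.21, chosen after seeing the data), with title prefixes summed (-0.060) and without the 2 controls of no lane (-0.074). The sign of KRT16 changed without DDR1 replicate 2 (-0.84), without control replicate 4 (-0.09), with prefixes summed (-0.014) and without the 2 controls of no lane (-0.34). The sign of KRT6B changed without the 2 controls of lane 7 (0.21). The summed KRT6 genes gave 0.996, but that sum is mostly KRT6A and is not an estimate of KRT6B. Of the correlated pairs, 0 had an adjusted p under 0.05 with group means subtracted, and 0 without the 2 outer libraries, where 6 libraries remain. Beyond these constructions the cause was not tested. No paired analysis was possible because replicate numbers follow only accession order. Depth limits KRT6C alone.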

Other observations

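Keratins outside the basal set also differed between libraries of 1 group. KRT4 and KRT13, the pair of mucosal squamous epithelium, were high in replicate 2 of both groups. KRT4 had 28.9, 155, 13.2 and 0.650 CPM in DDR1 replicates 1 to 4, against 10.19, 144, 1.21 and 1.22 CPM in control replicates 1 to 4. KRT13 had 115, 154, 10.6 and 22.0 CPM in DDR1 replicates 1 to 4, against 6.54, 84.3, 20.6 and 2.74 CPM in control replicates 1 to 4. DDR1 replicate 1 was thus high for KRT13 but not for KRT4, and neither gene was called by edgeR (adjusted p = 0.9998).

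Of 36 hair and other keratins 6 were tested, 1 above 0 and 5 below it (median log2 fold change -0.56), and 28 stayed below 1 CPM in every library. The most abundant was KRT27, a type I keratin of the inner root sheath of hair. It had 36.4, 137, 28.4 and 99.3 CPM in DDR1 replicates 1 to 4, against 49.02, 16.7, 44.9 and 4.34 CPM in control replicates 1 to 4. KRT23 had 8.94, 81.5, 14.5 and 3.20 CPM in DDR1 replicates 1 to 4, against 18.5, 55.7, 14.3 and 59.3 CPM in control replicates 1 to 4. KRT75, a type II keratin of the hair follicle, was between 1.84 and 10.8 CPM in DDR1 tumours and between 0.775 and 19.3 CPM in controls.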
